A study of Mus musculus with 64 samples.

Results

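The genes described here mark the epithelium of the pancreatic duct. They are Cdh1, Epcam, Elf3, Ehf, Krt7, Krt8, Krt18, Krt19 and Muc1, 9 genes chosen by name, and each was found among the 39017 genes of the deposited count table. Their levels were read in 8 mouse pancreatic ductal adenocarcinoma (PDA) cell lines, each grown alone and with fibroblasts.

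E-cadherin (Cdh1) joins neighboring epithelial cells at adherens junctions, and Epcam is a second adhesion molecule of simple epithelia. Keratins build intermediate filaments from paired chains, one of type I (Krt18, Krt19) and one of type II (Krt7, Krt8), and ductal cells of the pancreas are recognized in tissue by Krt7 and Krt19. Elf3 and Ehf are ETS-family transcription factors found mainly in epithelia, and Muc1 is a membrane mucin of the apical surface. Carcinoma cells that take on mesenchymal traits commonly reduce Cdh1 and Epcam.

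Besides a line named KPC1 there were 7 clones, named by letters. The clones came from the KPC model, which carries Trp53+/R172H and Pdx1-Cre among its alleles, so that Cre driven by the Pdx1 promoter switches on the mutant alleles in the pancreatic epithelium. All clones share these alleles, and the labels give the strain background as C57BL/6 mixed. The origin of KPC1 was not given in the sources used here. For each line 4 libraries were made from cells grown alone (mono-culture) and 4 from cells sorted by GFP after 48 h beside fibroblasts (coculture), 64 libraries in all. The study divided the clones by their metabolites: clones V, H and E formed group 1, while T, N, M and K formed group 2, and KPC1 was in neither. Each clone is 1 line, so a difference between 2 lines speaks of those lines, and no normal ductal cells were among the samples. The labels do not say whether mono-cultured cells were also sorted, so sorting and coculture cannot be told apart. Nor do they say that the libraries of a group came from separate cultures, so the p-values on libraries measure the spread between libraries, which may be technical.

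Library totals ran from 11178721 to 21333683 counts. Levels are given as counts per 1000000 (CPM), scaled with trimmed mean of M values (TMM) factors between 0.924 and 1.07, and comparisons between genes use the deposited reads per kilobase and 1000000 reads (RPKM). In the fit to all 64 libraries 14134 genes passed the filter on low counts, and 8 of the 9 ductal genes were among them. Epcam did not pass. A gene was called changed at a Benjamini-Hochberg adjusted p under 0.1, the threshold used in the study, from edgeR's quasi-likelihood test over all genes.

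Of the ductal markers, only 3 keratins were abundant. By mean RPKM in mono-culture Krt18 (825 RPKM) ranked 47th, Krt8 (376 RPKM) 108th and Krt19 (256 RPKM) 167th of the 27693 genes with a value above 0. Cdh1 (20.5 RPKM) followed at rank 3058. Elf3 (3.06 RPKM), Muc1 (1.01 RPKM), Ehf (0.674 RPKM) and Krt7 (0.448 RPKM) ranked between 9694 and 13869, and Epcam (0.0573 RPKM) was at rank 18358. The lines thus held the simple-epithelial pair Krt8 and Krt18 with Krt19, while Krt7, the other keratin used to recognize ductal cells, and Epcam were at low levels. The RPKM values of Krt7 divide by a long gene model (its exons cover 7049 bases over 5 transcripts), which lowers them beside the other keratins.

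**Figure D1:**
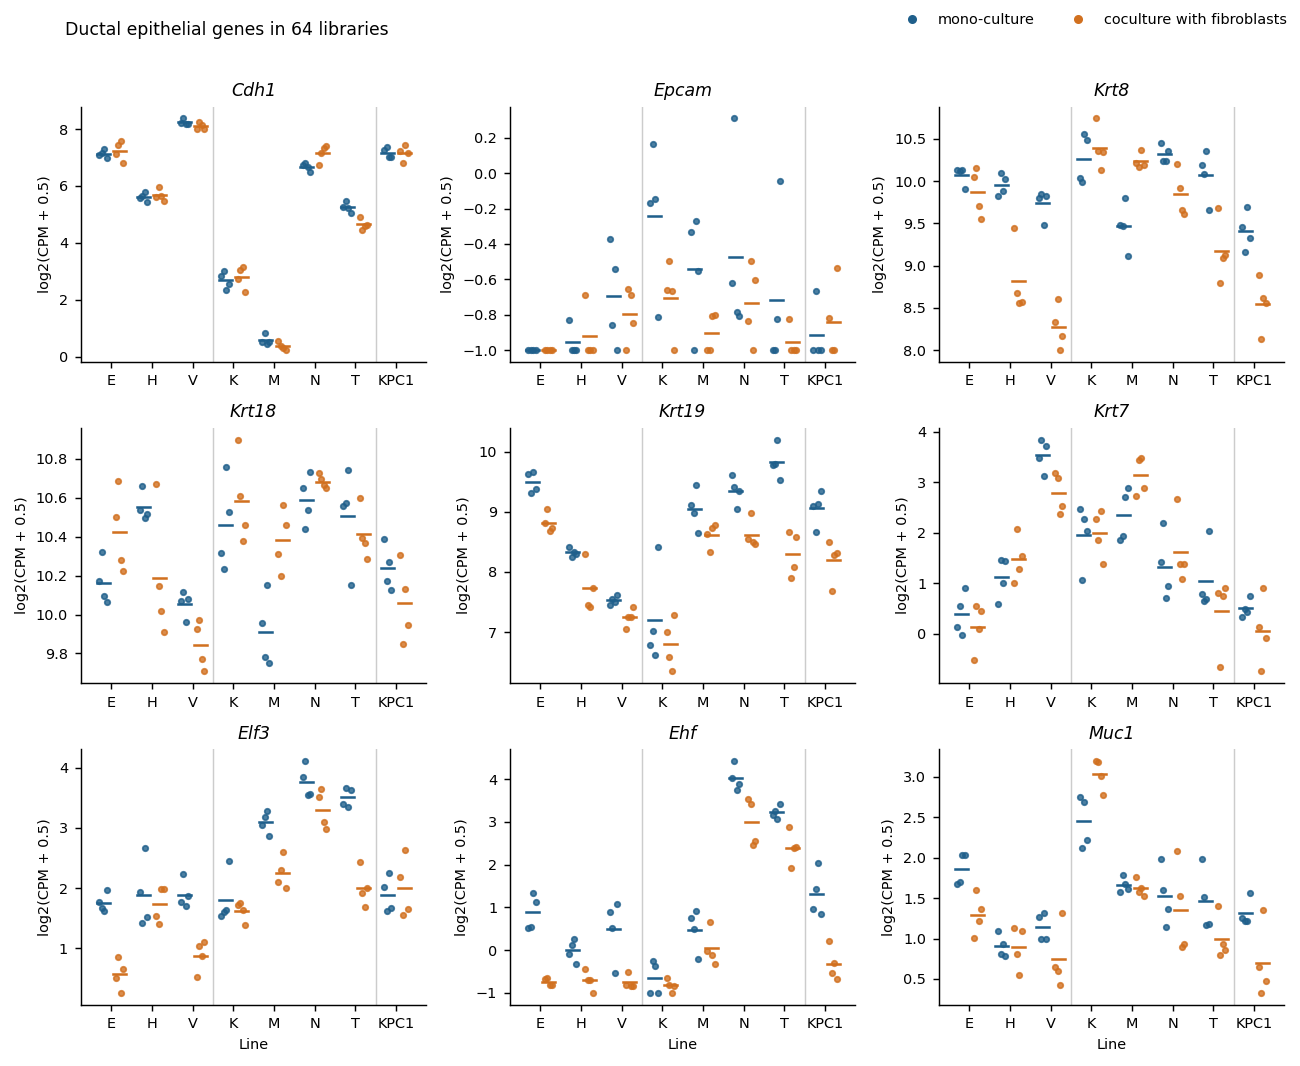
Levels of the 9 genes in every library, as log2(CPM + 0.5), by line. Each point is 1 library, blue for mono-culture and orange for coculture with fibroblasts, and the bars are means of 4 libraries; gray lines separate group 1 (left), group 2 and KPC1 (right). Cdh1 spans from 0.998 CPM in clone M to 303 CPM in clone V in mono-culture, while Krt18 stays between 968 and 1545 CPM; each panel has its own scale, and values at -1 are libraries with 0 counts.

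In mono-culture all 8 tested genes differed between lines (edgeR quasi-likelihood F test over the 32 mono-culture libraries, adjusted p from 2.11e-26 for Cdh1 to 3.00e-06 for Krt18). This is read against a background in which 96.9% of 13624 genes passed the same test. The lines were therefore compared by how far apart they were. Over the 8 line means of log2(CPM + 0.5), the standard deviation was 2.58 for Cdh1, larger than in 99.7% of all genes tested, and 1.61 for Ehf, larger than in 96.9%. It was 1.05 for Krt7, 0.95 for Krt19, 0.85 for Elf3 and 0.47 for Muc1. For Krt8 (0.34) and Krt18 (0.25) it was below the median of all genes, 0.36.

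Cdh1 (GRCm38 chromosome 8, 106603351 to 106670246) had the widest range of the 8 tested genes. Its 4 mono-culture libraries were at 297, 334, 291 and 292 CPM in clone V and at 0.941, 1.28, 0.853 and 0.911 CPM in clone M, where 64 reads were counted in all. The means of these clones differed 304-fold. Between them stood KPC1 at 145 ± 18.1 CPM (SD, n = 4, as for all means of libraries below), clone E at 140 ± 12.3, clone N at 102 ± 9.78, clone H at 48.5 ± 4.99, clone T at 37.8 ± 4.73 and clone K at 6.01 ± 1.33 CPM. Across the 28 pairs of lines, 27 differed in Cdh1, against a background of 61.8% of genes and pairs called in the same fit. The exception was KPC1 and E, which were 0.064 ± 0.110 apart on the log2 scale (SE, edgeR adjusted p = 0.634). Clones M and K, both of group 2, held the lowest levels, but N and T of the same group were more than 6-fold above K: the step from T down to K was 2.64 ± 0.13 on the log2 scale (adjusted p = 1.90e-16).

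Epcam (chromosome 17, 87635979 to 87651129) was close to the detection limit in every library. Its counts over all 64 libraries summed to 96. Clone K had the most, 22 counts in its 4 mono-culture libraries (0.371 CPM of the pooled counts), followed by N with 14, M with 13, T with 9 and V with 8. Clone H had 1 count, KPC1 had 2, and clone E had 0 in both cultures, which at its depth allows up to 0.043 CPM in mono-culture (3 counts; floors cover counting error only). Epcam and Cdh1 were not ordered alike: V had the highest Cdh1 and 8 Epcam counts, while K and M, lowest in Cdh1, were among the 3 highest in Epcam.

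The keratins of simple epithelia varied little between lines grown alone. Krt18 (chromosome 15, 102028180 to 102032027) was lowest in clone M at 993, 880, 1137 and 861 CPM and highest in clone N at 1604, 1389, 1488 and 1698 CPM, a 1.60-fold range of means. Krt8 (chromosome 15, 101996698 to 102004482), its type II partner and next gene on the chromosome at a distance of 23697 bases, ranged 1.86-fold from 687 ± 110.0 CPM in KPC1 to 1281 ± 92.0 CPM in N. None of the 7 neighbors in the order of levels differed for either gene, although 16 of 28 pairs differed in Krt8 and 18 of 28 in Krt18. The 8 line means of Krt8 and Krt18 gave a Pearson r of 0.73 in mono-culture and 0.86 in coculture, a description over 8 lines that share libraries between both genes.

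Krt19 (chromosome 11, 100140810 to 100148665), the type I keratin of duct cells, ranged 5.46-fold between lines. Its means were 924 ± 184 CPM in T, 728 ± 89.0 in E, 661 ± 102 in N, 540 ± 102 in KPC1 and 540 ± 122 in M, and no neighbors in the order of these 5 differed, although T was above KPC1 (adjusted p = 0.0102) and M (adjusted p = 0.00974). Clone H at 321 ± 16.1 CPM was lower than M (adjusted p = 0.00951), and V at 185 ± 9.43 CPM was lower than H (adjusted p = 0.00858). Clone K was at 109, 129, 98.0 and 341 CPM, so that its mean of 169 ± 115 CPM rested in part on the fourth library. That library was high in Elf3 as well (4.94 CPM against 2.40 to 2.62 CPM in the other 3).

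Krt7 (chromosome 15, 101411043 to 101430313), the type II keratin of duct cells, was low everywhere. It was highest in clone V at 11.4 ± 2.48 CPM, above clone M at 4.86 ± 1.91 CPM (adjusted p = 0.00337), and lowest in E at 0.854 ± 0.397 CPM. The 7 lines below V ran from 0.854 to 4.86 CPM with no step between neighbors past the threshold. V and K thus combined the lowest Krt19 with Krt7 at rank 1 and 3 of the lines, and over the 8 lines Krt7 and Krt19 gave a Pearson r of -0.65 (Spearman's rho -0.69) in mono-culture and -0.37 (Pearson) in coculture.

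The 2 epithelial ETS factors were low in CPM and highest in the same 2 clones. Elf3 (chromosome 1, 135253575 to 135258568) was at 13.3 ± 2.62 CPM in N, 10.9 ± 1.24 in T and 8.08 ± 1.03 in M. The other 5 lines were between 2.89 and 3.43 CPM, and the step from M to H, the highest of them, was the only one between neighbors past the threshold (1.20 ± 0.24 on the log2 scale, adjusted p = 7.92e-05). Ehf (chromosome 2, 103263433 to 103303278) was at 15.7, 20.98, 12.9 and 14.3 CPM in the libraries of N and at 8.41, 9.02, 7.88 and 10.2 CPM in those of T. It was at or under 2.15 CPM on average in the other 6 lines and at 0.153 ± 0.180 CPM in K, where 2 of 4 libraries had no count. M, the third in Elf3, was not high in Ehf (0.955 ± 0.440 CPM). The Pearson r of Elf3 and Ehf over the 8 lines was 0.81 (rho 0.62), and that of Ehf and Krt19 was 0.72 (rho 0.81).

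Muc1 (chromosome 3, 89229057 to 89233381) was highest in clone K, with 6.22, 3.86, 5.97 and 4.17 CPM in its mono-culture libraries. Clone E followed at 3.16 ± 0.506 CPM (adjusted p = 0.00605 against K), and the remaining lines ran down to H at 1.38 ± 0.190 CPM without a step past the threshold. By its means K therefore had the highest Muc1 and Epcam of the lines and the lowest Ehf and Krt19, so the 9 genes did not share 1 order of lines. K and V did not differ in Krt19 (edgeR adjusted p = 0.728), and Epcam in K rests on 22 counts and was not tested.

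**Figure D2:**
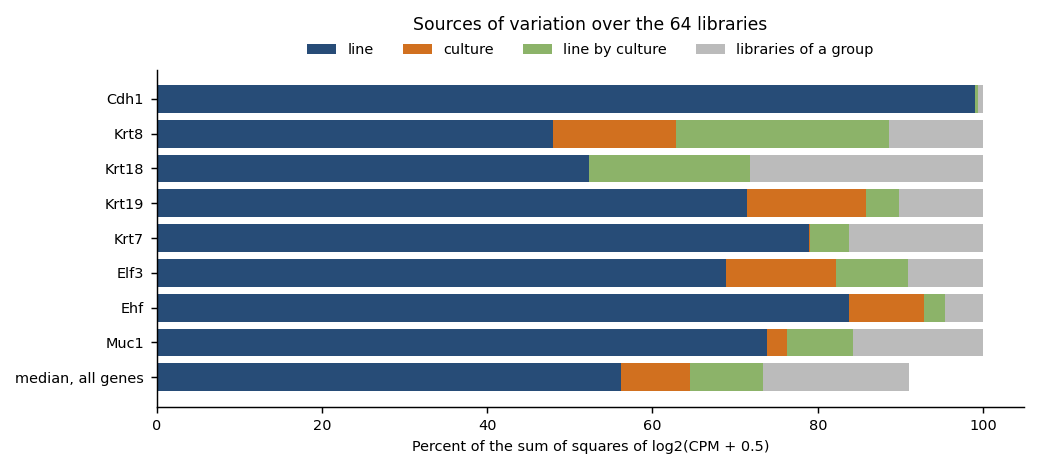
Shares of the sum of squares of log2(CPM + 0.5) over the 64 libraries for the 8 genes that passed the filter, split into line, culture, line by culture and libraries of a group, in percent. Line takes 99.0% for Cdh1, and culture with line by culture takes 40.7% for Krt8; the lowest bar holds the median of each share over all genes, which need not add to 100.

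The plot of variance shares shows which genes followed the line and which the culture. Differences between lines made up 99.0% of the sum of squares of Cdh1, and only 1 of 14134 genes had a larger share. They made up 83.8% for Ehf, 78.9% for Krt7, 73.8% for Muc1, 71.4% for Krt19 and 68.9% for Elf3, against a median of 56.2% over all genes. For Krt18 (52.3%) and Krt8 (48.0%) the share was below that median. Culture took 14.9% for Krt8, 14.4% for Krt19 and 13.2% for Elf3, above the median of 8.34%, and line by culture took 25.8% for Krt8 and 19.5% for Krt18, above the median of 8.78%.

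Coculture asked whether fibroblasts change the tumor cells. Over the 8 lines, with counts summed per line and culture, 4 of the 8 tested ductal genes fell and none rose (edgeR quasi-likelihood test with line as covariate). Of all 14478 genes tested 54.6% were called (27.2% higher and 27.4% lower). Ehf fell by 1.85 on the log2 scale (SE 0.37, adjusted p = 0.00409), Elf3 by 0.76 (SE 0.22, adjusted p = 0.0177) and Krt19 by 0.70 (SE 0.12, adjusted p = 0.00240). Krt8 fell by 0.51 (SE 0.22, adjusted p = 0.0809), but this call was lost when any of E, H, V, N, T or KPC1 was left out (adjusted p 0.102 to 0.181) and when replicate 3 was (adjusted p = 0.149). Muc1 was at -0.25 ± 0.16 (called without K, at -0.37 with an adjusted p of 0.0610), Krt7 at -0.09 ± 0.21, Cdh1 at -0.017 ± 0.107 and Krt18 at 0.017 ± 0.089, none past the threshold. The median of the 8 values was -0.38, against -0.00089 over all genes.

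Libraries of cells sorted from coculture also held more transcripts of fibroblast marker genes. Whether these came from fibroblasts or from the tumor cells cannot be told apart here. The summed level of Dcn, Fap, Postn and Thy1 was 0 to 0.201 CPM in mono-culture libraries and 14.6 to 155 CPM in coculture libraries. Of the 16 fibroblast markers listed, 12 had a higher mean in coculture in all 8 lines, and the remaining 4 (Prrx1, Fbln2, Mfap5 and Twist2) in 7, 6, 4 and 1 of 8. Line means of the 4-marker sum in coculture ran from 56.6 CPM in V to 97.4 CPM in N. The part of these transcripts in the changes of the ductal genes was not tested. The library numbers in the titles were split here after 43 into a first series (43 libraries) and a second (21). The titles do not mark this division, which follows another sample number that starts again there. The mono-culture libraries of K were all from the second series, those of E, N and V all from the first. Within a series Krt19 was lower in coculture in all 12 comparisons of a line that had both cultures, by 0.27 to 1.67 on the log2(CPM + 0.5) scale. Some of these, in H, M and KPC1, had 1 library in a culture. The rise of Krt8 in M was 0.79 in the first series (3 libraries per culture) and 0.70 in the second (1 per culture). In bulk libraries fewer cells of a kind and less RNA per cell cannot be told apart.

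**Figure D3:**
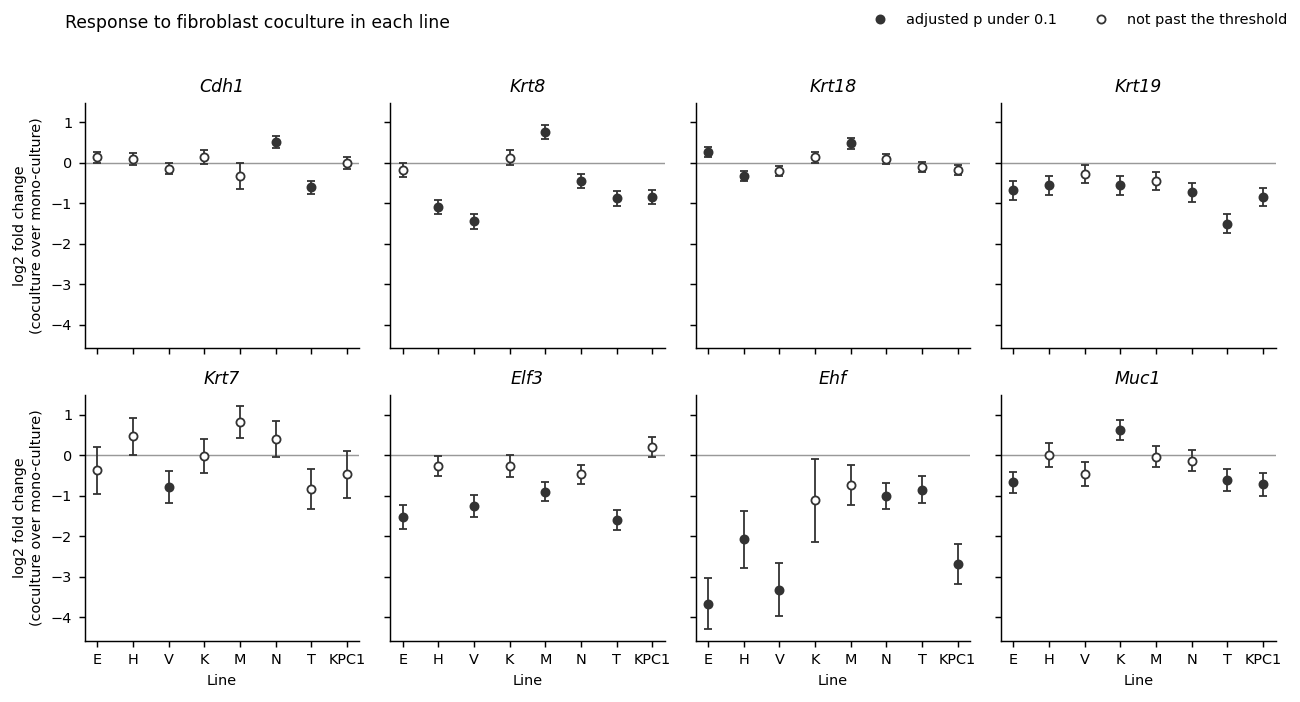
Log2 fold change of coculture over mono-culture in each line for the 8 tested genes, with standard errors from edgeR (4 libraries per culture, 1 fit to 64 libraries). Filled points passed an adjusted p under 0.1. Krt19 and Ehf lie below 0 in all 8 lines, Cdh1 passes in 2 lines with opposite signs, and Krt8 runs from -1.45 in V to 0.75 in M.

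Within single lines, 32 of 64 combinations of gene and line were called, 27 as lower and 5 as higher. Over all genes and lines 45.6% were called, 21.9% as lower and 23.7% as higher, so that the ductal genes were lower more often (42.2%) and higher less often (7.81%) than genes at large, as counts and without a test of that difference. Clone T had the most, with 6 of 8 genes lower and 0 higher, where 30.7% of all genes were lower, 31.5% higher and 62.2% called in all. Clone E had 4 lower and 1 higher (all genes: 29.2% lower, 32.1% higher, 61.3% in all), and V had 4 lower and 0 higher (31.5%, 30% and 61.5%). H had 4 lower and 0 higher (22.6%, 21.4% and 44%), as had KPC1 (19%, 20.1% and 39.2%). N had 3 lower and 1 higher (17.4%, 20% and 37.4%), M had 1 lower and 2 higher (17.3%, 21.6% and 38.9%), and K had 1 of each (8.02%, 12.5% and 20.5%). With 8 genes tested per line, these counts are too few to set any single line against its background share. K and M each had 1 lower call of 8. That of K was Krt19 (edgeR adjusted p = 0.09998), a call lost without replicate 2, 3 or 4. The responses of all 8 genes differed between lines (F test of line by culture, adjusted p from 2.79e-09 for Krt8 to 0.0998 for Krt7), against 71.3% of all genes. The call of Krt7 was lost without any 1 of the 4 replicate numbers (adjusted p 0.142 to 0.302), that of Krt19 without replicate 2 or 3 (0.184 and 0.258), and that of Muc1 without replicate 2 (0.177).

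Krt19 was lower with fibroblasts in every line by its value and fell in 6. Its coculture libraries lay below all mono-culture libraries in 5 lines (E, N, T, V and KPC1). Over all genes and lines 16.9% were separated downward in this way and 18.3% upward, against 31.2% and 4.69% of the 64 combinations of the 8 ductal genes. In clone T, where it changed most, Krt19 was at 883, 894, 1179 and 741 CPM alone and at 404, 239, 272 and 381 CPM with fibroblasts, a fall by 1.51 on the log2 scale (SE 0.24, adjusted p = 3.37e-07). It also fell in E, H, K, N and KPC1, by 0.56 to 0.85, with the call in H lost without replicate 2 or 3 (adjusted p 0.190 and 0.219). In M the value was -0.45 ± 0.23 (adjusted p = 0.132) and in V -0.28 ± 0.23 (adjusted p = 0.315). The call in K (adjusted p = 0.09998) was lost without replicate 2 or 3 (adjusted p 0.157 and 0.155), and without replicate 4, whose mono-culture library was the high one, the value was -0.14 (adjusted p = 0.768).

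Krt8 moved in both directions. In V it was at 889, 921, 715 and 903 CPM alone and at 322, 389, 256 and 288 CPM with fibroblasts, a fall by 1.45 on the log2 scale (SE 0.18, adjusted p = 3.65e-09). It fell by 1.10 in H (SE 0.18), by 0.88 in T (SE 0.18), by 0.85 in KPC1 (SE 0.18) and by 0.45 in N (SE 0.18, lost without replicate 3 or 4 at an adjusted p of 0.145 and 0.219). In M it rose, from 715, 708, 892 and 554 CPM to 1191, 1147, 1319 and 1173 CPM, by 0.75 (SE 0.18, adjusted p = 0.00109), with no overlap between the cultures. In K (0.12 ± 0.18) and E (-0.19 ± 0.18) it was not called. The 4-marker sum of fibroblast marker transcripts in coculture was 72.0 CPM in M and 90.9 CPM in K. In the lines where Krt8 fell, this sum ran from 56.6 CPM in V to 97.4 CPM in N. Its part in the changes of Krt8 was not tested. The partner of Krt8 moved less. Krt18 rose in M by 0.47 (SE 0.13, adjusted p = 0.00349) and in E by 0.27 (SE 0.13, adjusted p = 0.0700), fell by 0.34 in H (SE 0.13, adjusted p = 0.0339), and was between -0.21 and 0.13 without a call in the other 5 lines. The calls of Krt18 in E and H were lost without 3 of the 4 replicate numbers (adjusted p 0.124 to 0.254 in E and 0.151 to 0.202 in H).

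The balance of the pair differed with them. The RPKM of Krt8 per Krt18 was 0.475 ± 0.0335 in V alone and 0.203 ± 0.0215 with fibroblasts. It was lower in coculture without overlap of libraries in E (0.560 to 0.402), H (0.390 to 0.228), N (0.491 to 0.334), T (0.439 to 0.254) and KPC1 (0.336 to 0.208) as well. In K it was 0.517 ± 0.0452 and 0.518 ± 0.0251, and in M it was higher in coculture (0.438 ± 0.0417 and 0.534 ± 0.0388), again without overlap. These ratios are descriptions. Because they divide 2 genes of the same library, they do not depend on library scaling.

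**Figure D4:**
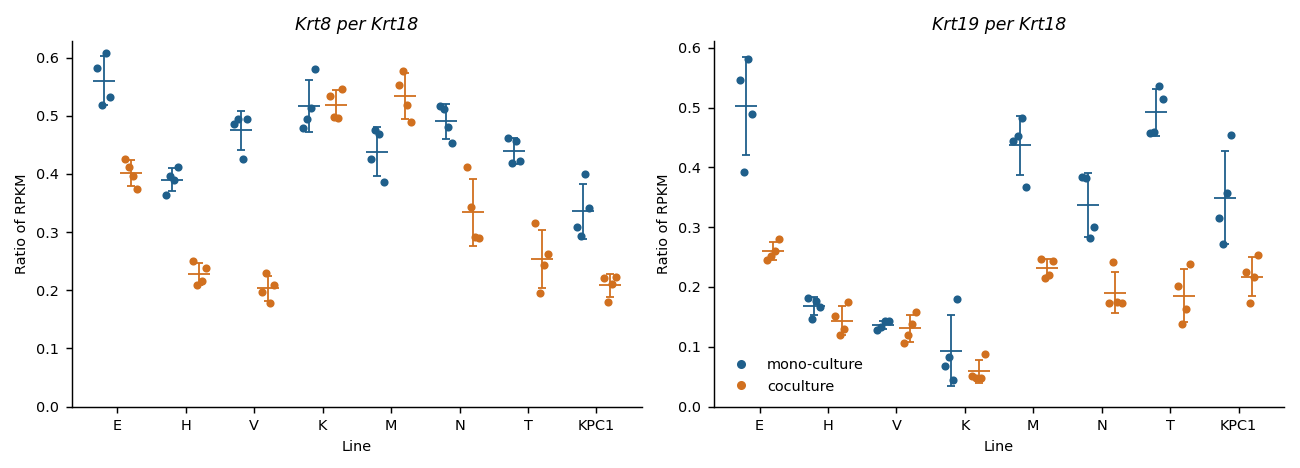
Ratios of RPKM between keratins in each library, by line: Krt8 per Krt18 on the left and Krt19 per Krt18 on the right, blue for mono-culture and orange for coculture. Points are libraries and bars are means with SD of 4 libraries. Krt8 per Krt18 is lower in coculture in 6 lines, about equal in K (0.517 and 0.518) and higher in M; Krt19 per Krt18 differs most in T and E.

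Krt19 per Krt18 showed another order of lines. In T it was 0.492 ± 0.0396 RPKM per RPKM alone and 0.185 ± 0.0441 with fibroblasts, in E 0.502 ± 0.0822 and 0.260 ± 0.0153, and in M 0.437 ± 0.0488 and 0.231 ± 0.0160. In V it was 0.136 ± 0.00724 and 0.131 ± 0.0225. The line whose Krt8 per Krt18 was reduced most therefore had the smallest difference in Krt19 per Krt18, and in M the 2 ratios moved in opposite directions.

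The 2 ETS factors were lower in coculture in most lines. Ehf had a negative value in all 8 lines and fell in 6. In E its 4 libraries held 20, 13, 38 and 27 counts alone and 2, 2, 1 and 1 with fibroblasts, a fall by 3.67 on the log2 scale (SE 0.64, adjusted p = 3.13e-06). It fell by 3.32 in V (SE 0.66), by 2.68 in KPC1 (SE 0.50) and by 2.08 in H (SE 0.70). These sizes rest on few reads. Counts summed to 66 alone and 6 with fibroblasts in V, 143 and 19 in KPC1, and 32 and 8 in H. In V the cultures overlapped, with the lowest library alone at 0.187 CPM and the highest with fibroblasts at 0.203 CPM. In N and T, the clones with the most Ehf, it fell by 1.01 (SE 0.33) and 0.86 (SE 0.34, adjusted p = 0.170 without replicate 2), and was still at 7.92 ± 3.16 and 4.91 ± 1.47 CPM. Elf3 fell in T from 10.05, 12.1, 9.63 and 11.8 CPM to 4.89, 3.26, 2.71 and 3.49 CPM, by 1.60 on the log2 scale (SE 0.24, adjusted p = 1.65e-07), with no overlap. It fell by 1.53 in E (SE 0.29), by 1.25 in V (SE 0.28) and by 0.90 in M (SE 0.24). In KPC1 Elf3 was at 0.20 ± 0.25 (adjusted p = 0.581) while Ehf fell, so the pair did not always move together.

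Cdh1 kept its order of lines at both ends. The line means in mono-culture and coculture gave a Pearson r of 0.99 over 8 lines. The value was 0.94 for Ehf, 0.93 for Krt19, 0.90 for Muc1, 0.89 for Krt7, 0.77 for Elf3, 0.46 for Krt18 and 0.42 for Krt8. Cdh1 rose in N from 107, 111, 100.1 and 88.7 CPM to 106, 143, 159 and 169 CPM (0.50 ± 0.14, adjusted p = 0.00643). It fell in T from 37.6, 44.1, 36.6 and 32.8 CPM to 29.4, 21.3, 23.8 and 24.3 CPM, by 0.61 (SE 0.15, adjusted p = 4.60e-04). The other 6 lines were between -0.34 and 0.14 with no call. Only 140 of 14134 genes had a smaller share of their sum of squares from culture. Clone M, at 0.784 ± 0.129 CPM, stayed the lowest in coculture.

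Krt7 and Muc1 changed in few lines. Krt7 was called in 1 line, V, where it fell by 0.79 (SE 0.39, adjusted p = 0.0796, and 0.127 to 0.239 without replicate 2, 3 or 4), and was at 0.81 ± 0.40 in M (adjusted p = 0.114). Muc1, a mucin of the apical surface, fell by 0.67 in E (SE 0.26), by 0.61 in T (SE 0.27) and by 0.72 in KPC1 (SE 0.29), and rose by 0.62 in K (SE 0.24, adjusted p = 0.0689), where the libraries were at 6.22, 3.86, 5.97 and 4.17 CPM alone and 8.66, 8.56, 7.53 and 6.37 CPM with fibroblasts. The clone with the most Muc1 alone was thus the clone in which it rose. Without replicate 2 the calls of Muc1 in K, T and KPC1 were lost (adjusted p 0.360, 0.235 and 0.216), and without replicate 4 those in K and KPC1 (0.158 and 0.314). Epcam, not tested, summed to 69 counts in the 32 mono-culture libraries and 27 in the 32 coculture libraries.

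The study contrasted group 1 with group 2. With 1 sum per clone (3 against 4), edgeR called 0 of the 9 ductal genes and 0% of 14829 genes. At an unadjusted p under 0.05 stood 2 of the 9 genes and 766 of 14829; DESeq2 called 117 genes and 0 of the 8 ductal genes it gave an adjusted p (Epcam had none). Elf3 was at 3.19 ± 0.273 CPM in group 1 (SD, 3 clones) and 8.84 ± 4.37 CPM in group 2 (4 clones), with K at 3.13 CPM inside the range of group 1 (-1.43 ± 0.49, adjusted p = 0.888). Ehf was at 0.976 ± 0.448 and 6.49 ± 7.44 CPM, and Cdh1 at 164 ± 129 and 36.6 ± 46.3 CPM, with overlap for both. Epcam was the only one of the 9 whose clones did not overlap in mono-culture, with 0 to 0.127 CPM in group 1 and 0.133 to 0.370 CPM in group 2, and it overlapped in coculture. The nearest clones were V with 8 Epcam counts in mono-culture and T with 9, and 1 library of T stood apart at 0.468 CPM. The share of all genes whose clones separated in this way was not computed, so no difference between the groups is read from Epcam. Krt8, Krt18, Krt19, Krt7 and Muc1 overlapped in both cultures.

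The difference in response between the groups was called for 0 of 8 ductal genes by edgeR, against 0.00689% of 14523 genes. At an unadjusted p under 0.05 stood 1 of the 8, Ehf, and 1096 of all genes. The response of Ehf in group 1 minus that in group 2 was -2.16 ± 0.40 (edgeR adjusted p = 0.580). DESeq2 called it (-2.23, adjusted p = 0.0164), and limma on log2(RPKM + 1) gave 0.12, the opposite sign. Ehf in group 1 alone was between 0.0800 RPKM (H) and 0.234 RPKM (E), far under the added 1, which limits a fall on that scale. With 0.1 added in place of 1 the sign stayed negative, without a call. Krt8 differed by -0.79 ± 0.43 (adjusted p = 0.683).

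Other genes of epithelia give the context. Of 26 further junction genes with counts, 17 were tested over lines, and in coculture 4 rose and 8 fell. Ppl (periplakin, a linker of keratin to junctions) fell by 1.35 (SE 0.24) from a range of 47.3 to 247 CPM to 7.99 to 140 CPM. Pkp3, a desmosomal plaque protein, rose by 1.06 (SE 0.19) but stayed at or under 5.45 CPM, and Cxadr, a tight junction receptor, rose by 0.41 (SE 0.09). None of 3 other epithelial keratins tested was called by edgeR (0 with an unadjusted p under 0.05; DESeq2 called 1).

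Of 10 epithelial transcription and splicing factors tested, 4 fell and none rose. Grhl3 fell by 2.61 (SE 0.45) and Grhl2 fell by 1.85 (SE 0.34), both factors of epithelial differentiation, with Grhl2 at or under 6.60 CPM in every line. Of 7 membrane proteases, inhibitors and related genes tested, 2 fell and 2 rose, with Epn3 at -1.32 ± 0.20 and Tmprss2 at -1.45 ± 0.30 lower and Myo5b at 3.96 ± 0.72 higher. Of 13 mucins and ductal or classical subtype genes, 8 fell and 1 rose. Ceacam1 fell by 2.37 (SE 0.29) and Muc4 fell by 1.47 (SE 0.23). Onecut2, a factor of duct development, fell by 1.65 (SE 0.22). The median of this list was -1.09. All adjusted p-values of the named genes were at or under 0.00578 in edgeR.

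Of 10 mesenchymal genes and EMT factors 3 rose and 2 fell. Zeb2 rose by 0.50 (SE 0.09) and Snai2 by 1.10 (SE 0.22), both repressors of epithelial genes, and S100a4 fell by 0.80 (SE 0.14). Their part from fibroblast RNA was not tested. Of 14 fibroblast markers tested 12 rose and 1 fell. Of 3 markers of other cell types tested, Cd68 rose by 1.37 (SE 0.35), Pecam1 fell by 1.08 (SE 0.37) and Cela1 fell by 0.54 (SE 0.23, adjusted p = 0.0801). Of all lists, the genes that separated the lines with the smallest p in mono-culture were Cdh2 (N-cadherin, 57.2 CPM in M to 318 CPM in V), Spint2 (a protease inhibitor, 1.16 CPM in H to 75.2 CPM in T) and Cdx2 (an intestinal factor, 0.370 CPM in V to 215 CPM in M). In mono-culture clone V thus had the most E-cadherin and the most N-cadherin, and clone M the least of both.

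The genes most like each ductal gene over the 16 means of line and culture were found by Pearson r of mean log2(CPM + 0.5), the highest of all genes tested and so a description. Cdh1 was followed by Ddx23 (0.92), Gm6467 (0.87) and Ints10 (0.86), of which Ddx23 ranged from 121 to 189 CPM only. Elf3 was followed by Slc22a18 (0.90), Orm3 (0.90) and Rab3gap1 (0.89), and Ehf by Pilra (0.96), Elfn2 (0.93) and Adcy7 (0.92). Krt7 was followed by Mast4 (0.87), Neurl1a (0.87) and Ccnjl (0.86), Krt8 by Cyp4f16 (0.93), Pspc1 (0.93) and Trp53rk (0.92), and Krt18 by Tyw5 (0.86), Gmfb (0.85) and Atp5j (0.82). Among the 3 nearest to Krt19 were Plekha6 (0.91) and Zfp251 (0.91), and Muc1 was followed by Gm13241 (0.93), Pip4k2a (0.91) and Adat3 (0.90). No gene stood among the 3 nearest of more than 1 ductal gene.

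Promoter sequences were read for 6 of the 9 genes from RefSeq (GRCm38.p6), 250 bases before to 50 after the start. The letters CACCTG, an E-box bound by repressors of the Snai and Zeb families, were searched on both strands, where they read CAGGTG on the reverse. All 6 windows (Epcam, Elf3, Krt7, Krt8, Krt18 and Muc1) held them, against 20.2% of 32851 promoters. Shown are Epcam, which had the fewest counts, the neighbors Krt8 and Krt18 whose levels parted in coculture, and Elf3, 5′ to 3′ along the strand of the gene, with the E-box in capitals. Epcam is at chr17:87635729-87636028 (+), Krt8 at chr15:102004293-102004592 (-), Krt18 at chr15:102027966-102028265 (+) and Elf3 at chr1:135258423-135258722 (-).
Epcam: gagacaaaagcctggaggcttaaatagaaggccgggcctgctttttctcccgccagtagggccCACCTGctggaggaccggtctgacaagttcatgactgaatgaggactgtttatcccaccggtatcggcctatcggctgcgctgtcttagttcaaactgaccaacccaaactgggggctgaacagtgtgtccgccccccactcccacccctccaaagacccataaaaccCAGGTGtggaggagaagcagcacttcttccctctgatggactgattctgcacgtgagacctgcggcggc
Krt8: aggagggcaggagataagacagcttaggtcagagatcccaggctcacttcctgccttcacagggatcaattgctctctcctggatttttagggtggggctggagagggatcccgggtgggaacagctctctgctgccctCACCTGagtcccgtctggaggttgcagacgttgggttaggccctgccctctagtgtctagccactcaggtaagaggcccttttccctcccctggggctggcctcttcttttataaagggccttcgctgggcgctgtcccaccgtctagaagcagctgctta
Krt18: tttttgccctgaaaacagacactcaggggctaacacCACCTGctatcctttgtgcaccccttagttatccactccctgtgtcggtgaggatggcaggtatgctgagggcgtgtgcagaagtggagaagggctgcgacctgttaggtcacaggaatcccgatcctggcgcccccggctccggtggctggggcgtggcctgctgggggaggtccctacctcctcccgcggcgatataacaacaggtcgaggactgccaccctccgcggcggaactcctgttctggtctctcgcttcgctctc
Elf3: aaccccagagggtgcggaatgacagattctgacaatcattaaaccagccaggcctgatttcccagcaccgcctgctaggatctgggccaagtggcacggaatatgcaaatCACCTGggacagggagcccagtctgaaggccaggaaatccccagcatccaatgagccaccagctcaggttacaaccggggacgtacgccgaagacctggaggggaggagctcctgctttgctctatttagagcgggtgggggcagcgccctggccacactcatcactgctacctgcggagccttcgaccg

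The windows of abundant Krt8 and Krt18 and of Epcam at the detection limit held the same letters, Epcam with 2 matches and the keratins with 1 each. CCGGAA, the only form of an ETS site searched, was in none of the 6 windows (14.9% of all promoters). Shorter forms such as GGAA were not searched, and some occur in the printed windows. AACCNGTT, a site of grainyhead-like factors, was in that of Muc1 alone (2.09%). GGGCGG, the GC box, was in those of Epcam, Krt7 and Muc1 (35.7%). A match is a description of letters and not a bound site.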

How the data were processed

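RNA of 64 libraries (8 lines, 2 cultures, 4 libraries each) was selected for poly(A), prepared strand-specifically and sequenced in pairs. The authors deposited whole-number counts per gene. The submitters' processing notes name featureCounts, edgeR and the build mm10; the aligner, annotation and versions are not given in the sources used here. They also deposited RPKM per gene (reads per kilobase and 1000000 reads), used here only for levels between genes and for ratios. Totals ran from 11178721 to 21333683 counts per library, and no molecular identifiers were used, so floors of 3 counts cover counting error only. No 2 libraries of a group agreed within sampling noise (chi-square per gene 4.46 to 65.5).

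Counts were tested with edgeR 4.0.16 (R 4.3.3; TMM, filterByExpr, quasi-likelihood F test, Benjamini-Hochberg over all genes, adjusted p under 0.1). Lines were compared over 32 mono-culture libraries, responses within lines over 64 libraries, and responses over lines and between groups on counts summed per line and culture. Plotted levels add 0.5 CPM before log2. Alternatives used DESeq2 1.42.0, limma 3.58.1 on log2(RPKM + 1) or log2(RPKM + 0.1), RLE factors, no filter, a replicate block, the series of sample numbers, a threshold of 0.05, and leaving out each replicate number or line. The procedures were tested on simulated data. All 9 genes are named; of each other list up to 3 genes with the smallest p past the threshold are named for the response over lines and for the groups, and 3 of all lists for the line differences. Some items that these rules name are not reported here. The genes and lists were chosen with earlier results of these data known.

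Positions are those of GENCODE on GRCm38. Gm26642, Gm671 and Gm36026 overlap exons of Elf3, Krt7 and Krt8 on the opposite strand, and Krt8 and Krt18 each have 1 processed pseudogene that is not in the count table (98.6% identical over 941 bases for Krt8, 90.5% over 1267 bases for Krt18), so counts of Krt8 above all carry that uncertainty. Promoters came from RefSeq for 6 of 9 genes. Same-numbered mono-culture and coculture libraries of a line deviated together in part (r -0.107 to 0.440, median 0.206, 22 of 32 over 0.1). The median r was -0.071 for libraries with different numbers. The main fits did not use the numbers, and a replicate block was run as an alternative.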

Additional observations from a re-analysis of the deposited data

Results flagged for a closer look

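In 160 groups of 4 values (libraries of a line and culture, or the 4 clones of group 2), 21 held a value far from the other 3 by Dixon's test; chance alone gives about 1 in 20 groups. Of the keratins, Krt8 stood apart at 961 CPM in E alone (replicate 4, others 1111 to 1121), at 697 CPM in H with fibroblasts (replicate 1, others 376 to 410) and at 715 CPM in V alone (replicate 3, others 889 to 921). Krt19 stood apart at 341 CPM in K alone (replicate 4) and at 506 CPM in N with fibroblasts (replicate 2, others 353 to 375). Krt7 did so at 5.82 CPM in N with fibroblasts (replicate 1), at 3.57 CPM in T alone (replicate 4) and at 0.130 CPM in T with fibroblasts (replicate 2).

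The K library with high Krt19 was also apart in Elf3 (4.94 CPM, replicate 4). Ehf was at 0.203 CPM in 1 library of V with fibroblasts (replicate 2), which is 3 counts, and Muc1 at 2.45 CPM in KPC1 alone (replicate 4). Cdh1 was at 334 CPM in V alone (replicate 2, others 291 to 297). Epcam was marked in 6 groups, in all of which the value rests on 10 counts or fewer: H alone (0.0629 CPM) and with fibroblasts (0.121), N alone (0.741), T alone (0.468) and with fibroblasts (0.0651), and KPC1 alone (0.130).

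Among the clones of group 2, N stood apart in Cdh1 with fibroblasts (144 CPM, others 0.784 to 24.7) and K in Muc1, at 5.06 CPM alone and 7.78 CPM with fibroblasts.

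The response to coculture differed between lines for all 8 tested genes in edgeR's F test of line by culture. The adjusted p was 2.79e-09 for Krt8, 6.81e-05 for Elf3, 0.00108 for Cdh1, 0.00142 for Krt18, 0.00162 for Ehf, 0.0130 for Muc1, 0.0393 for Krt19 and 0.0998 for Krt7. The same test called 71.3% of all genes. Krt8 lay below 0 in 6 lines and above 0 in K and M, whereas Krt19 and Ehf had 1 sign in all 8 lines and differed in size.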

How the results depend on the processing

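Of 1451 values under 22 settings for 119 results, 1310 kept direction and side of the threshold. Ehf, Elf3 and Krt19 fell over lines under every setting run. The calls within lines numbered 23 (without replicate 2) to 36. The calls of Krt7 in V, Krt8 in N, Krt18 in E and H, Krt19 in H and K, Ehf in T and Muc1 in K, T and KPC1 were each lost on leaving out at least 1 replicate number. Leaving out a replicate number left 5 to 7 of 8 responses that differed between lines, 5 without replicate 2.

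The replicate block gave 8 genes differing between lines, 5 responding over lines, 36 combinations within lines and 8 responses that differed between lines, so it moved no such count by over 1.5 times. It added the calls of Muc1 over lines (adjusted p = 0.0368), Elf3 in N (0.0279), Krt7 in M (0.0278) and T (0.0968), Krt19 in M (0.0455) and Muc1 in V (0.0835), and lost that of Krt19 in K (0.103). Over lines the block was fitted to the 64 libraries and not to sums per line, so the call of Muc1 rests on the spread between libraries. The block turned the sign of Krt7 in K (0.0056) and Muc1 in H (-0.0062), neither called. Between groups 1 and 2 the block takes 28 libraries as replicates of 7 clones and called 4 of the 9 genes (Cdh1, Elf3, Ehf and Muc1) and 3619 of all. Of the 32 coculture libraries, 22 correlated best with the mono-culture library of their own number.

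For groups 1 and 2 alone, all genes called were 1 without the filter, 117 by DESeq2, 1 by limma on log2(RPKM + 0.1), 1 in coculture libraries, and 0 to 217 on leaving out a replicate number or clone (217 without E). For the difference in response they were 3 without the filter, 182 by DESeq2 (Ehf the 1 ductal gene), 0 by limma in each form, 0 at a threshold of 0.05, and 0 to 34 on leaving out (34 without E). The cause was not tested.

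No value that changed sign was called. By limma on log2(RPKM + 1), with or without the filter, Cdh1 over lines was 0.0068 and Krt7 0.0029, and between groups the response of Elf3 differed by 0.071 and of Ehf by 0.12. With the series as covariate Cdh1 in KPC1 was 0.025 and Krt7 in K 0.18. In coculture Krt7 differed between groups by -0.30. On leaving out, values over lines ran from -0.096 to 0.074 for Cdh1, -0.23 to 0.11 for Krt7 and -0.051 to 0.079 for Krt18. Within lines they ran for Cdh1 from -0.012 to 0.16 in H, -0.11 to 0.25 in K and -0.16 to 0.17 in KPC1, for Elf3 from -0.52 to 0.033 in H and -0.42 to 0.13 in K, for Krt7 from -0.20 to 0.17 in K and -0.21 to 1.01 in N, for Krt8 from -0.088 to 0.30 in K, for Krt18 from -0.040 to 0.30 in K, and for Muc1 from -0.15 to 0.16 in H and -0.13 to 0.026 in M. Between groups they ran from -1.29 to 1.08 for Krt7, and for the difference in response from -0.17 to 0.30 for Cdh1 and -0.59 to 0.059 for Elf3.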
